A study of Homo sapiens with 12 samples.

Results

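The 10 genes described here are FOS, FOSB, FOSL1, FOSL2, JUN, JUNB, JUND, EGR1, ARC and MYC, a set of immediate early genes that includes both families of the AP-1 transcription factor. They were taken by gene symbol from the 2 expression tables of the study, and all 10 were present among the 16426 genes that both tables held. Of the 10, all were tested in the compound table and 8 in the siRNA table, where FOSB and ARC stayed under the minimum of 1 FPKM in at least 2 of 6 libraries.

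Immediate early genes are transcribed soon after a cell receives a growth factor or a stress, without the need for new protein, and most of their transcripts are short-lived. AP-1 is a dimer of a Fos protein with a Jun protein, or of Jun proteins with each other. It binds a short palindromic DNA element, and the make-up of the dimer differs between resting and stimulated cells. In EGFR-driven lung cancer cells the ERK pathway downstream of the receptor is a known driver of FOS, FOSL1 and EGR1 transcription, and JUN is also a substrate of the stress-activated JNK kinases.

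The data are bulk RNA-seq of HCC827 and NCI-H1975, human cell lines from non-small cell lung cancer that carry activating mutations of EGFR. Each line was given 18E, a compound known here only by this code name, at 2.5 µM or at 5 µM, with a time of 24 h in the labels, or DMSO as the vehicle. In a separate siRNA experiment each line received siDYN-1 or siDYN-2, labelled 48 h, or the control siRNA siCON; the title of the series names LIC1, an alias of the dynein light intermediate chain gene DYNC1LI1, and autophagy. There was 1 library for each line and treatment, 12 in all. The 2 lines are therefore the only replicates of a treatment (n = 2), the labels do not say that any line was cultured more than once, and a p-value reflects how far these libraries disagree.

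Levels are FPKM, fragment counts divided by transcript length and by the fragments of the library, without read totals, so the depth is unknown. FPKM totals ran from 486409 to 685680. Genes listed at 0 numbered 534 in the HCC827 library at 5 µM 18E, against 1082 at 2.5 µM and 1395 with DMSO. In the siRNA table they numbered 1519 and 1570 in the siDYN-2 libraries, 2061 and 2183 in the siDYN-1 libraries and 2204 and 2212 in the siCON libraries. DYNC1LI1 stood at 7.49% (HCC827) and 12.8% (NCI-H1975) of siCON with siDYN-2, and at 14.9% and 21.5% with siDYN-1. The epithelial label held, with EPCAM at 217 to 502 FPKM and none of 8 epithelial markers listed at 0. Markers of blood, endothelial and stromal cells summed to 2.34 to 13.96 FPKM, and CD14 was the highest of them at up to 10.7 FPKM.

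The proximal promoters of FOS, FOSB, JUN and EGR1, 4 members with large differences at 5 µM 18E, are shown beside that of JUND. The difference of JUND was small, and that of EGR1 was large in HCC827 only (2.61, against 0.33 in NCI-H1975, log2). The windows are the 250 bases before the RefSeq start of each gene on GRCh38.p14, written 5′ to 3′ on the strand of the gene, and capitals mark matches to the motifs searched.
FOS chr14:75278578-75278827 (+ strand): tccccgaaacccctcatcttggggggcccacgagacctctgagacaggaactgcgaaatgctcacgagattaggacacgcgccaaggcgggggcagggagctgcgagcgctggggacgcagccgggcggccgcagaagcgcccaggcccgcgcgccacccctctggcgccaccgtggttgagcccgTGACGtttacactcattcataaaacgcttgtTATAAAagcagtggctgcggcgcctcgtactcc
FOSB chr19:45467746-45467995 (+ strand): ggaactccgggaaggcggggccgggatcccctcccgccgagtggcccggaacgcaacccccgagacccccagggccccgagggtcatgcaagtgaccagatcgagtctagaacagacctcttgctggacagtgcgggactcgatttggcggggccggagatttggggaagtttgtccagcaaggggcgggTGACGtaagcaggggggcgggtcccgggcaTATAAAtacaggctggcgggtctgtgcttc
JUN chr1:58784048-58784297 (- strand): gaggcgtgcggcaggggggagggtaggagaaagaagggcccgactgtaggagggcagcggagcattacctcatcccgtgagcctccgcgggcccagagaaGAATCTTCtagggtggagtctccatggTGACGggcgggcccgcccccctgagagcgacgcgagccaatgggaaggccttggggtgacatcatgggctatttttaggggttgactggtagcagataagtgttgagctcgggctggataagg
EGR1 chr5:138465229-138465478 (+ strand): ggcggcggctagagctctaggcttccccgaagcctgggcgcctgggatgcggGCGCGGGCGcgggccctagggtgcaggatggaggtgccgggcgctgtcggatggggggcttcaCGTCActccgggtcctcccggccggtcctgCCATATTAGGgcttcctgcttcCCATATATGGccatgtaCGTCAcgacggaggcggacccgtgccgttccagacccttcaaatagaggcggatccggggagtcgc
JUND chr19:18281623-18281872 (- strand): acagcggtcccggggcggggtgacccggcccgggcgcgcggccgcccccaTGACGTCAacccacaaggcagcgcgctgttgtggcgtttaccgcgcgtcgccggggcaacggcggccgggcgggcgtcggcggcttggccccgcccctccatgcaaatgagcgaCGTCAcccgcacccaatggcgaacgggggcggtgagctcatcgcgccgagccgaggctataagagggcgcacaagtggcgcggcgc

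RefSeq promoter windows of 7 of the 10 members were searched, the 5 above with FOSL2 and JUNB. FOSL1 was not matched. ARC and MYC were left out by a rule that skipped members on chromosome 8, whether or not a window was there. Both strands were searched for the cyclic AMP response element (CRE, TGACGTCA) and its core (TGACG, which also lies within the whole element). The other motifs were the AP-1 site (TGANTCA), the TATA box (TATAAA), the EGR site (GCGNGGGCG), a heat shock pair (GAANNTTC), the C/EBP-ATF composite (TGATGNAA) and the CArG box, the site of serum response factor. All 7 windows held the core, against 21.2% of 35093 promoter windows of the same length. In FOS it began 64 bases before the start and in FOSB 60 bases before it. A TATA box was found in FOS, FOSB and JUNB, 33, 30 and 31 bases before the start, against 10.7% of all windows. JUND held the whole CRE, 200 bases before its start (1.65% of all windows), and EGR1 held 2 CArG boxes, 105 and 83 bases before its start (1.16% of all windows). The EGR site was found in EGR1 alone of the 7 (8.41% of all windows) and the heat shock pair in JUN alone (5.78%). None of the 7 windows held the AP-1 site or the C/EBP-ATF composite as spelled here, which 6.57% and 3.15% of all windows held. These matches describe letters and not binding.

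In GENCODE 29 on GRCh38, FOS lies on chromosome 14 (75278774 to 75282230, plus strand), EGR1 on chromosome 5 (138465490 to 138469315, plus strand) and FOSL1 on chromosome 11 (65892049 to 65900573, minus strand). JUN is a gene of 1 exon on chromosome 1 (58780788 to 58784327, minus strand). JUND lies on chromosome 19 (18279760 to 18281622, minus strand), as do JUNB (12791496 to 12793315, plus strand, 1 exon) and FOSB (45467995 to 45475179, plus strand). JUNB overlaps HOOK2 and FOSB overlaps ERCC1, each on the opposite strand. FOSL2, on chromosome 2 (28392448 to 28417312, plus strand), overlaps an antisense and a sense intronic transcript. The use of strand in the counting is not given in the sources used here, so reads of overlapping genes cannot be told apart. ARC and MYC lie on chromosome 8. The RefSeq starts used for the promoter windows are not always the GENCODE starts. The JUN and FOSL2 windows lie within the GENCODE genes, and the FOS window runs past the GENCODE start. The motif distances above therefore hold for the RefSeq starts only.

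Without treatment the members spanned a wide range of levels. FOSL1, which encodes FRA-1, had 231 FPKM in HCC827 and 140 FPKM in NCI-H1975 with DMSO, and 124 and 166 FPKM with siCON; it was the highest of the 10 members in all 4 control libraries. MYC, JUNB, JUND and JUN had 17.7 to 113 FPKM over the 4 control libraries. FOSL2, which encodes FRA-2, had 15.2 to 20.3 FPKM there. FOS had 1.95 to 4.04 FPKM and EGR1 3.57 to 17.7 FPKM in the controls. FOSB was listed at 0.05 to 0.44 FPKM and ARC at 0 to 0.18 FPKM in the controls, so these 2 genes passed the minimum in the compound table only through treated libraries and had to be higher there.

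With 5 µM 18E, 9 of the 10 members were higher than with DMSO in both lines, and FOSL2 was the exception. The difference reached 2-fold in both lines for FOS, FOSB, JUN, ARC and MYC, on the log2(FPKM + 1) scale that is used for every difference here and that understates changes of low genes. None of the 10 passed limma with Benjamini-Hochberg adjustment over the 11953 genes tested, a test that called 1 gene (0.00837%). Their adjusted p-values ran from 0.1 to 0.439, and 7 of the 10 had an unadjusted p under 0.05 upward, against 10% of all genes tested. These 7 were FOS, JUN, JUNB, EGR1 and MYC, with FOSB and ARC, which had to be higher. The background for 9 of 10 higher in both lines was 25.5% of all genes tested, and that for 5 of 10 at least 2-fold higher in both was 1.07%. Leaving out FOSB and ARC and counting the 8 members with at least 1 FPKM in both DMSO libraries, 7 were higher in both lines (background 24.7%) and 3 at least 2-fold higher (background 0.819%). In bulk RNA a change in the share of cells that express a gene and a change in RNA per cell cannot be told apart, and likewise fewer cells of a type and less RNA per cell.

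**Figure D1:**
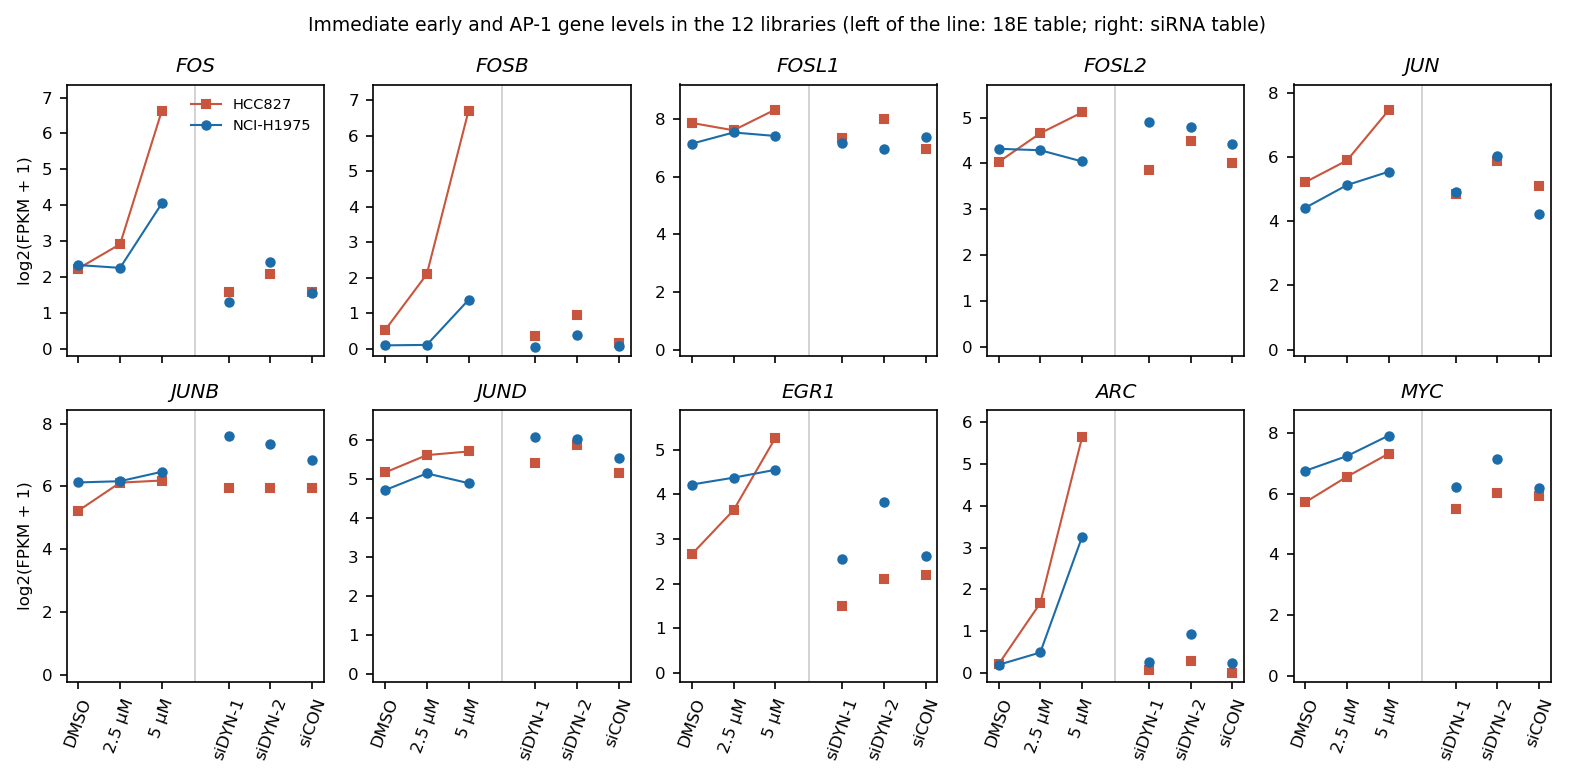
Level of each member in every library, as log2(FPKM + 1) on the vertical axis, 1 point per library. Lines join the DMSO, 2.5 µM and 5 µM libraries of HCC827 (squares) and NCI-H1975 (circles), and the siRNA libraries stand right of the grey line. FOS, FOSB and ARC climb most steeply between 2.5 and 5 µM in HCC827, where FOSB reaches 103 FPKM, and FOSL1 is at 123 FPKM or more in all 12 libraries.

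FOS encodes the classical inducible Fos protein. It had 3.71 FPKM with DMSO, 6.53 FPKM at 2.5 µM and 98.3 FPKM at 5 µM in HCC827, and 4.04, 3.77 and 15.6 FPKM in NCI-H1975. The 5 µM library was the highest in each line, and the 2.5 µM library of NCI-H1975 was no higher than its DMSO library. At 5 µM the fitted difference was 3.06 ± 0.60 (log2, SE; limma, adjusted p = 0.102), with FPKM 26.5 times the DMSO value in HCC827 and 3.86 times in NCI-H1975.

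FOSB, the close relative of FOS whose truncated splice form is long-lived, was nearly silent with DMSO. In HCC827 it had 0.44 FPKM with DMSO, 3.29 FPKM at 2.5 µM and 103 FPKM at 5 µM, which put it above FOS in that library. In NCI-H1975 it had 0.07, 0.08 and 1.60 FPKM. The 5 µM library was the highest of its line in both, with a low value in NCI-H1975. The fitted difference was 3.73 ± 1.06 (log2, SE; limma, adjusted p = 0.122). Like ARC, it passed the minimum only through treated libraries. Genes listed at 0 were also fewest in that library, and their part in the FOSB value was not tested.

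FOSL1 and FOSL2, the Fos-related members that lack a strong transactivation domain, did not pass. FOSL1 had 231 FPKM with DMSO, 193 FPKM at 2.5 µM and 319 FPKM at 5 µM in HCC827, and 140, 183 and 169 FPKM in NCI-H1975, a fitted difference of 0.37 ± 0.22 at 5 µM (log2, SE; limma, adjusted p = 0.33). FOSL2 had 15.3, 24.3 and 33.6 FPKM in HCC827 and 19.0, 18.6 and 15.5 FPKM in NCI-H1975. Its 5 µM library was the highest of 3 in HCC827 and the lowest of 3 in NCI-H1975, so the fitted difference of 0.40 ± 0.32 averages opposite directions (log2, SE; limma, adjusted p = 0.439). Without the HCC827 library at 5 µM it was -0.11, and without the HCC827 DMSO library -0.10.

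The Fos family as a whole therefore had another make-up at 5 µM in HCC827. FOSL1 made up 92.2% of the summed Fos-family FPKM with DMSO in that line, 85.0% at 2.5 µM and 57.5% at 5 µM. At 5 µM FOS made up 17.8% and FOSB 18.7% of the sum, which was 554 FPKM against 250 FPKM with DMSO. In NCI-H1975 the FOSL1 share was 85.8%, 89.1% and 83.8% over the same doses, and FOS reached 7.74% at 5 µM. These shares are of transcript FPKM, 1 library each, with no test.

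**Figure D2:**
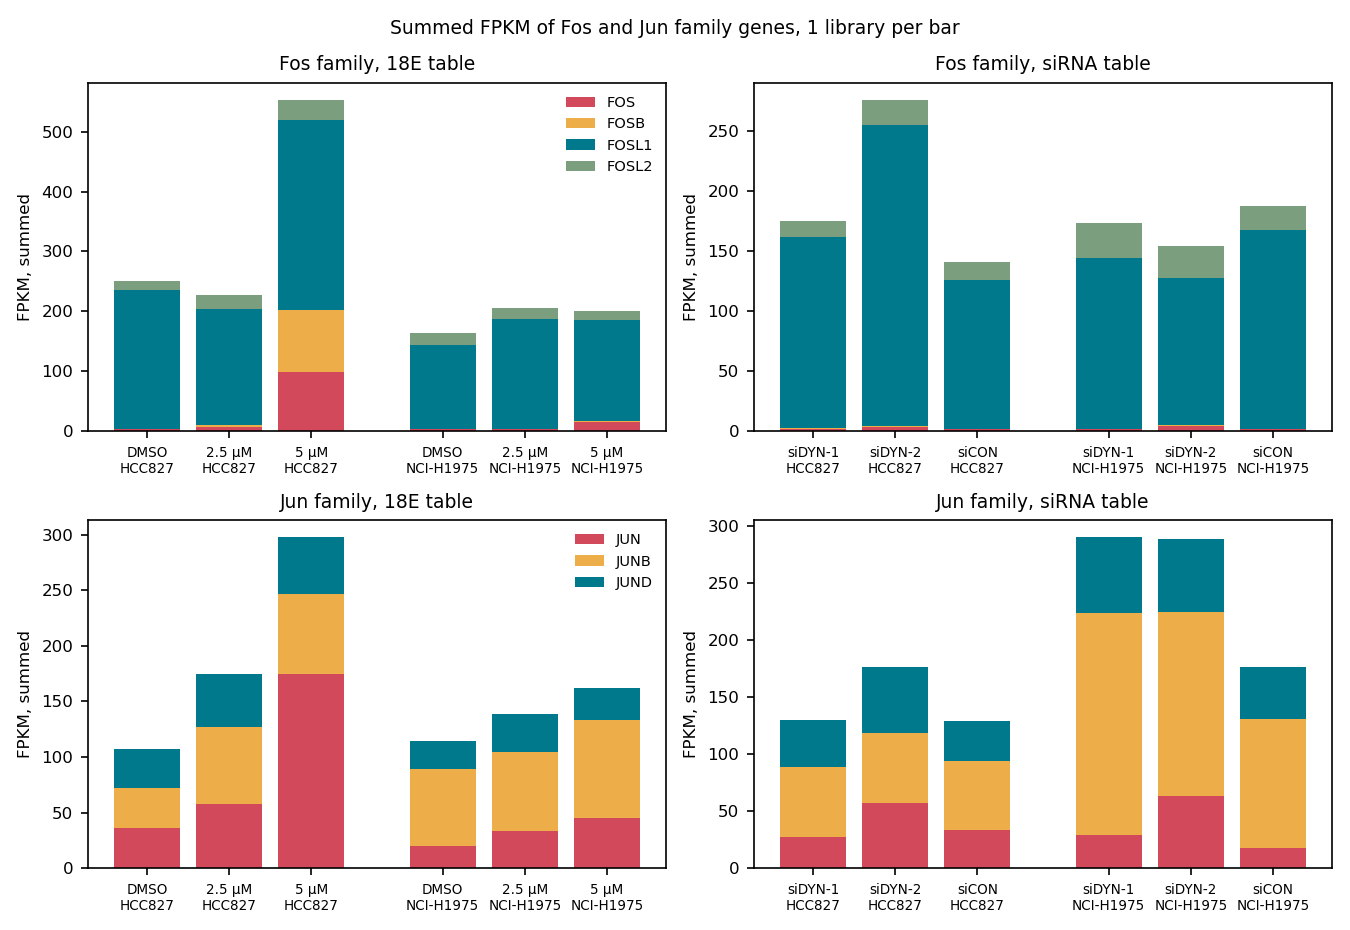
Summed FPKM of the Fos family (upper panels) and the Jun family (lower panels), stacked by gene, 1 library per bar. In HCC827 at 5 µM 18E the Fos-family sum is 554 FPKM with FOS and FOSB visible in the stack, and JUN makes up 58.6% of the Jun-family sum; in the siRNA panels FOSL1 stays the bulk of the Fos family in every library.

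Among the Jun proteins, which form the other side of the AP-1 dimer, JUN differed most. JUN had 36.0 FPKM with DMSO, 58.3 FPKM at 2.5 µM and 175 FPKM at 5 µM in HCC827, and 20.3, 33.8 and 45.5 FPKM in NCI-H1975. Both lines followed the same order of doses, and the fitted difference was 1.69 ± 0.31 at 5 µM (log2, SE; limma, adjusted p = 0.1). Its share of the summed Jun-family FPKM was 33.5%, 33.3% and 58.6% in HCC827 and 17.7%, 24.3% and 28.1% in NCI-H1975. JUN and JUNB have 1 exon; over 163 single-exon genes the median difference at 5 µM was -0.23 in HCC827 and -0.22 in NCI-H1975, against -0.10 and -0.07 over all genes tested. The part of this in the JUN and JUNB values was not tested.

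JUNB, which often opposes JUN in cell-cycle control, had 36.5, 68.6 and 72.0 FPKM in HCC827 and 69.0, 70.9 and 87.5 FPKM in NCI-H1975 over the same doses. Most of its HCC827 difference was already there at 2.5 µM. JUND, the broadly expressed Jun protein, had 35.0, 48.0 and 51.3 FPKM in HCC827 and 25.3, 34.4 and 28.8 FPKM in NCI-H1975. The fitted differences at 5 µM were 0.65 ± 0.23 for JUNB (adjusted p = 0.16) and 0.36 ± 0.17 for JUND (adjusted p = 0.232; both log2, SE, limma).

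EGR1, a zinc-finger factor induced through serum response factor, had 5.31 FPKM with DMSO, 11.5 FPKM at 2.5 µM and 37.5 FPKM at 5 µM in HCC827, and 17.7, 19.8 and 22.5 FPKM in NCI-H1975. The order of doses was the same in both lines, but the span was 7.07-fold in HCC827 and 1.27-fold in NCI-H1975. The fitted difference at 5 µM was 1.47 ± 0.51 (log2, SE; limma, adjusted p = 0.153).

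ARC encodes a cytoskeleton-associated protein best known as an activity-dependent gene of neurons. It had 0.16 FPKM with DMSO, 2.19 FPKM at 2.5 µM and 48.3 FPKM at 5 µM in HCC827, and 0.15, 0.41 and 8.52 FPKM in NCI-H1975. Both lines began near 0 and the 5 µM library was far above the others in each. The fitted difference was 4.23 ± 0.52 (log2, SE; limma, adjusted p = 0.1), for a gene that passed the minimum only through treated libraries. ARC was the only member whose call changed with the pseudocount: at a pseudocount of 0.1 its adjusted p was 0.0466 (limma). The test then called 16 of 11953 genes, against 1 in the reported fit, and the fitted ARC difference was 6.32. Among 9 tested genes of ARC partners and other neuronal synaptic genes, of 14 listed, the median difference at 5 µM was -0.18 in HCC827 and -0.06 in NCI-H1975, with 3 higher and 5 lower in both lines.

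MYC encodes a growth-promoting factor that binds DNA with MAX. In HCC827 it had 51.6 FPKM with DMSO, 93.5 FPKM at 2.5 µM and 159 FPKM at 5 µM, and 107, 150 and 241 FPKM in NCI-H1975 over the same doses. Levels followed dose in both lines, and the 2 lines differed least for MYC among the 5 members that were at least 2-fold higher in both. The fitted difference at 5 µM was 1.39 ± 0.17, ranked 19 by p among 11953 genes (log2, SE; limma, adjusted p = 0.1).

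The size of the differences at 5 µM depended on which libraries were fitted. Each of the 6 fits that left out 1 library kept a single library in 1 group. A p-value from such a fit holds no spread for that group, so sizes alone are given for the members. ARC ran from 3.34 to 5.12, FOS from 1.91 to 4.21, JUN from 1.12 to 2.25 and MYC from 1.19 to 1.59 (log2). FOSB and ARC passed the minimum only through treated libraries and had to be higher. Without the NCI-H1975 library at 5 µM, that dose was the HCC827 library alone. FOSB, FOSL2, JUND and EGR1 then gave 5.79, 0.92, 0.535 and 2.40. Without the HCC827 library at 5 µM they gave 1.67, -0.11, 0.18 and 0.54.

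At 2.5 µM 18E, 7 of 10 members were higher than with DMSO in both lines (background 32.2% of genes tested) and none was at least 2-fold higher in both (background 0.251%). The 7 were JUN, JUNB, JUND, EGR1 and MYC, with FOSB and ARC, for which the minimum favoured higher treated libraries. No gene of 11953 passed the adjusted test, which called 0%, while 389 had an unadjusted p under 0.05 upward, 3.25% of genes tested, with MYC and JUND among them. MYC gave 0.67 ± 0.17, JUN 0.69 ± 0.31, JUNB 0.47 ± 0.23 and JUND 0.44 ± 0.17, each with an adjusted p of 0.915 (log2, SE; limma). FOSB and ARC, which passed the minimum only through treated libraries, differed from DMSO by 1.57 and 1.46 in HCC827 and by 0.01 and 0.29 in NCI-H1975 (log2), with no test between the lines at this dose.

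The doses were also compared with each other in the same fit. FOS, FOSB and ARC were at least 2-fold higher at 5 µM than at 2.5 µM in both lines, 3 of 10 against a background of 0.418%. FOSB and ARC passed the minimum only through treated libraries; of the 8 members with at least 1 FPKM in both DMSO libraries, FOS alone reached that step (1 of 8, background 0.295%). The fitted dose differences were 3.35 ± 0.52 for ARC, 2.94 ± 1.06 for FOSB, 2.76 ± 0.60 for FOS, 0.99 ± 0.31 for JUN and 0.72 ± 0.17 for MYC. Each had an adjusted p of 0.411 (limma), and the test called 0% of genes, with 443 of 11953 (3.71%) higher at an unadjusted p under 0.05. The step for MYC from 2.5 to 5 µM was about as large as its difference between 2.5 µM and DMSO, whereas ARC, FOSB and FOS had most of their difference in the upper step.

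**Figure D3:**
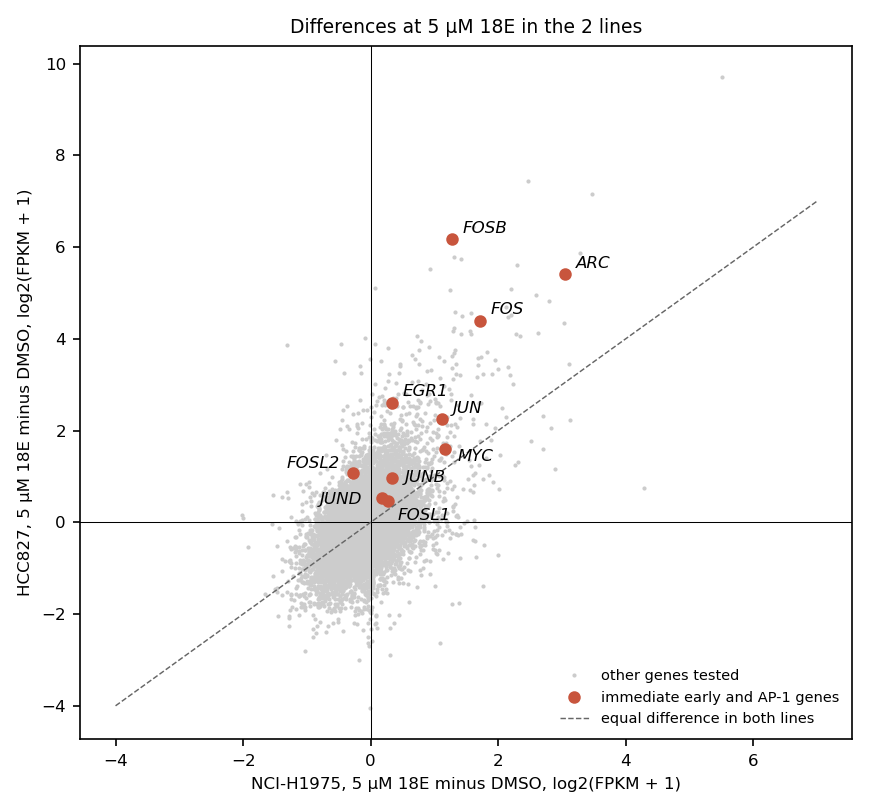
Difference between 5 µM 18E and DMSO in log2(FPKM + 1), HCC827 on the vertical axis and NCI-H1975 on the horizontal axis, 1 point per gene tested, with the 10 members in red. All 10 members lie above the dashed line of equal differences, FOSB furthest from it at 6.18 in HCC827 and 1.28 in NCI-H1975, and FOSL2 is the one member left of 0.

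All 10 members had a larger difference at 5 µM in HCC827 than in NCI-H1975, as did 47.8% of genes tested. Over all genes, 884 were at least 2-fold higher in HCC827 and 213 in NCI-H1975. By rank within each line, MYC, JUN, ARC and FOSL1 stood slightly lower in HCC827 (MYC above 97.1% of genes, against 98.7%). FOS, FOSB, FOSL2, JUNB, JUND and EGR1 stood higher there (EGR1 above 99.0%, against 85.3%). In HCC827 7 of 10 were at least 2-fold higher, against 7.4% of genes tested, and in NCI-H1975 5 of 10, against 1.78%, with FOSB and ARC counted in both. EGR1 had 2.61 in HCC827 and 0.33 in NCI-H1975, and FOS had 4.40 and 1.72 (log2). The difference between the lines was tested as an interaction over both doses, in which the doses stand in for replicates. It called 0% of genes, with 98 genes (0.82%) higher and 107 (0.895%) lower in HCC827 at an unadjusted p under 0.05, and none of the 10 members was among them. Their adjusted p was 0.999 throughout (limma). The size of each interaction was uncertain, for example 3.23 ± 2.56 for FOSB and 1.72 ± 2.23 for FOS (log2, SE, HCC827 minus NCI-H1975).

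With knockdown of DYNC1LI1 none of the 8 tested members was at least 2-fold from siCON in both lines with either siRNA (background 0.478% higher with siDYN-1 and 1.65% with siDYN-2). Higher in both lines at any size were 2 of 8 with siDYN-1 (background 34.5%) and 6 of 8 with siDYN-2 (background 39.9%). With both siRNAs in 1 term against siCON, the limma test with Benjamini-Hochberg adjustment called none of the 8 tested members and none of the 11718 genes (0%), while 1473 genes (12.6%) were higher at an unadjusted p under 0.05. JUND was the only member among these, with 0.50 ± 0.16 (log2, SE; adjusted p = 0.125). The siRNAs differed from each other, however, and each was therefore also compared alone, which was decided with the data in view. Against siCON, siDYN-1 gave no member call (82 genes called, 0.7%), and siDYN-2 gave 2, JUN and JUND, among 2124 genes called (18.1%) or 1209 called higher (10.3%).

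JUN had 27.7 FPKM with siDYN-1, 57.2 with siDYN-2 and 33.4 with siCON in HCC827, and 29.1, 63.7 and 17.7 FPKM in NCI-H1975. The siDYN-2 library was the highest in both lines, while siDYN-1 was below siCON in HCC827 and above it in NCI-H1975. JUN rose by 1.28 ± 0.26 with siDYN-2 (log2, SE; limma, adjusted p = 0.0285). The fitted size was 0.78 without the NCI-H1975 siCON library and 1.77 without the HCC827 siCON library (log2). It was 0.998 without the NCI-H1975 siDYN-2 library and 1.55 without the HCC827 siDYN-2 library. Each of these fits kept a single library in 1 group, so sizes alone are given. The JUN share of the summed Jun-family FPKM was 32.5% with siDYN-2 and 25.9% with siCON in HCC827, and 22.0% and 10.0% in NCI-H1975.

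JUND had 41.8, 57.7 and 34.8 FPKM with siDYN-1, siDYN-2 and siCON in HCC827, and 66.7, 64.4 and 45.3 FPKM in NCI-H1975. All 4 knockdown libraries were above the siCON library of their line. JUND rose by 0.61 ± 0.16 with siDYN-2 (log2, SE; limma, adjusted p = 0.045). The call was lost with equal FPKM totals (0.0816), with quantile normalization (0.077) and without the variance trend (0.0529). The fitted size was 0.59 without the siCON library of NCI-H1975 and 0.62 without that of HCC827 (log2). It was 0.79 without the NCI-H1975 siDYN-2 library and 0.43 without the HCC827 siDYN-2 library. Sizes alone are given for these fits, for the same reason as for JUN. Single-exon genes, JUN and JUNB among them, had a median siDYN-2 difference of 0.15 in HCC827 and 0.18 in NCI-H1975, against 0.02 and 0.03 over all genes tested, and 28 of 160 were called higher. The part of this in the JUN value was not tested, nor was that of the lower number of genes listed at 0 in the siDYN-2 libraries.

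JUNB had 61.0, 61.3 and 60.6 FPKM with siDYN-1, siDYN-2 and siCON in HCC827, and 195, 161 and 113 FPKM in NCI-H1975. The HCC827 libraries were nearly equal and both knockdown libraries of NCI-H1975 were above siCON. Both siRNAs together gave 0.33 ± 0.18 (log2, SE; limma, adjusted p = 0.284). The value was 0.011 without the siCON library of NCI-H1975 and 0.642 without that of HCC827.

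FOS had 1.97, 3.23 and 1.97 FPKM in HCC827 and 1.48, 4.38 and 1.95 FPKM in NCI-H1975 with siDYN-1, siDYN-2 and siCON. It was highest with siDYN-2 in both lines, at 0.69 ± 0.19 against siCON (log2, SE; limma, adjusted p = 0.0506). Without the variance trend the adjusted p was 0.0482, in a fit that called 2023 genes. Over the other settings with all libraries it ran from 0.0535 (pseudocount of 0.1) to 0.629 (no line block). The siDYN-2 difference of FOS was 0.45 without the NCI-H1975 siDYN-2 library and 0.93 without the HCC827 siDYN-2 library (log2). FOSB reached 0.95 FPKM with siDYN-2 in HCC827 and 0.31 in NCI-H1975, against 0.11 and 0.05 FPKM with siCON. ARC had 0.22 FPKM with siDYN-2 in HCC827, where it was listed at 0 with siCON, and 0.92 FPKM in NCI-H1975, against 0.18 FPKM with siCON; neither gene was tested in this table.

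FOSL1 had 159, 251 and 124 FPKM with siDYN-1, siDYN-2 and siCON in HCC827, and 143, 123 and 166 FPKM in NCI-H1975. Both knockdown libraries were above siCON in HCC827 and below it in NCI-H1975, and the fitted difference was 0.18 ± 0.28 (log2, SE; limma, adjusted p = 0.697). Without the siCON library of HCC827 the fitted difference was -0.32, and without its siDYN-2 library -0.03. FOSL2 had 13.5, 21.5 and 15.2 FPKM in HCC827 and 28.8, 26.9 and 20.3 FPKM in NCI-H1975, a fitted difference of 0.30 ± 0.20 (adjusted p = 0.379).

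EGR1 had 1.83, 3.31 and 3.57 FPKM with siDYN-1, siDYN-2 and siCON in HCC827, and 4.89, 13.2 and 5.16 FPKM in NCI-H1975. Only the NCI-H1975 siDYN-2 library stood above its control. MYC had 44.0, 63.6 and 59.4 FPKM in HCC827 and 73.0, 139 and 71.5 FPKM in NCI-H1975. Its siDYN-2 library was again high in NCI-H1975 and near siCON in HCC827. Both siRNAs together gave 0.09 ± 0.40 for EGR1 and 0.16 ± 0.30 for MYC (log2, SE; limma, adjusted p = 0.901 and 0.756). With equal FPKM totals the EGR1 value was -0.005. Without the siCON library of NCI-H1975 the values were -0.39 for EGR1 and -0.16 for MYC, and without the siDYN-2 library of that line -0.25 and -0.08. Without the siCON library of HCC827 they were 0.57 for EGR1 and 0.49 for MYC. The difference between the lines in the knockdown response was tested in the same way as for 18E; limma called 0% of 11718 genes, with 178 at an unadjusted p under 0.05 in either direction, and none of the 8 members was among these.

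FOS, JUN, EGR1 and MYC were higher with siDYN-2 than with siDYN-1 in both lines, 4 of 8 members against a background of 38%. JUN was at least 2-fold higher in both lines (background 0.452%). The direct test called 71 genes (0.606%) and none of the members, with 1.06 ± 0.26 for JUN (adjusted p = 0.102), 0.94 ± 0.29 for EGR1 (0.151), 0.81 ± 0.19 for FOS (0.0902) and 0.72 ± 0.21 for MYC (0.131; log2, SE, limma, siDYN-2 minus siDYN-1). DYNC1LI1 itself stood at 3.04 and 5.10 FPKM with siDYN-2 and siDYN-1 in NCI-H1975 and at 1.22 and 2.42 FPKM in HCC827. Without the NCI-H1975 siDYN-2 library the difference was 0.78 for JUN and 0.45 for EGR1 (log2). Without the HCC827 siDYN-2 library it was 1.34 and 1.43. Leaving out a siCON library left both sizes as they were. Each of these fits kept a single library in 1 group, so sizes alone are given.

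**Figure D4:**
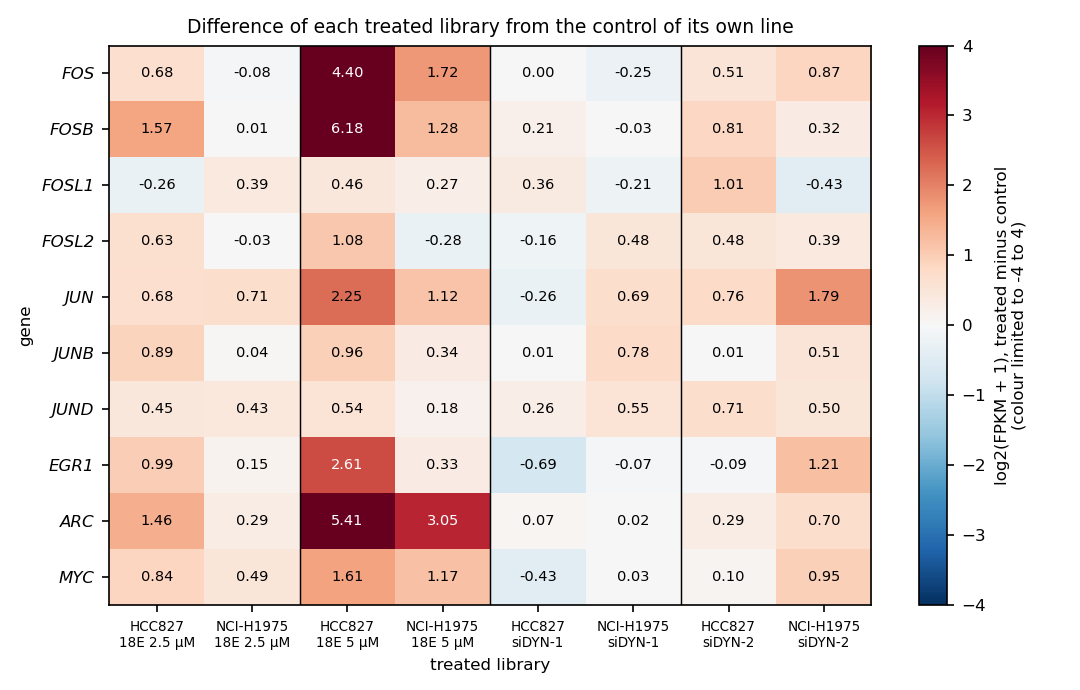
Difference of each treated library from the control of its own line, in log2(FPKM + 1), for the 10 members (rows) in the 8 treated libraries (columns); red is higher than the control and blue lower, with the value printed in each cell. The darkest cells are ARC, FOSB and FOS in HCC827 at 5 µM 18E, at 5.41, 6.18 and 4.40; with siDYN-2 the largest is JUN in NCI-H1975 at 1.79.

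The 2 experiments are set side by side only as differences within each table. JUN had 2.25 (HCC827) and 1.12 (NCI-H1975) at 5 µM 18E, and 0.76 and 1.79 with siDYN-2. ARC had 5.41 and 3.05 at 5 µM 18E, and 0.29 and 0.70 with siDYN-2. MYC had 1.61 and 1.17 at 5 µM 18E, and 0.10 and 0.95 with siDYN-2. With siDYN-2 the difference was larger in NCI-H1975 for these 3 and for FOS, JUNB and EGR1, and larger in HCC827 for FOSB, FOSL1, FOSL2 and JUND. These are 1 library each, at 24 h and 48 h, with no test between the experiments.

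Other genes of the pathway were read from lists. Of 28 other immediate early genes, 23 were tested and 19 were higher in both lines at 5 µM 18E, against a background of 25.5%. Their medians were 1.60 in HCC827 and 0.29 in NCI-H1975, against -0.10 and -0.07 over all genes tested. None passed the adjusted test. GADD45B, a stress-induced signalling adaptor, had 530 FPKM at 5 µM and 8.98 with DMSO in HCC827, and 67.0 and 24.4 FPKM in NCI-H1975 (3.58 ± 0.92, log2, SE; limma, adjusted p = 0.113). PLK2, a polo-like kinase, gave 2.50 ± 0.55 and MAFF, a small Maf protein, 2.28 ± 0.48 (both adjusted p = 0.104). With siDYN-2, 11 of the 23 were higher in both lines (background 39.9%) and 8 were called higher (background 10.3%); over both siRNAs together IER3 gave 1.00 ± 0.21 (log2, SE; limma, adjusted p = 0.0981).

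The dimer partners of AP-1 outside the Fos and Jun families numbered 25, of which 22 were tested. At 5 µM 16 were higher in both lines (background 25.5%) and 4 at least 2-fold higher in both (background 1.07%). The medians were 0.42 in HCC827 and 0.38 in NCI-H1975, and none passed. MAFF is on this list as well as the one before, so the lists overlap. With siDYN-2, 13 were higher in both lines (background 39.9%), and 9 were called higher (background 10.3%) and 2 lower (background 7.81%). BATF3, a bZIP protein that pairs with JUN, had 44.1, 54.1 and 21.3 FPKM with siDYN-1, siDYN-2 and siCON in HCC827 and 14.6, 18.3 and 5.45 FPKM in NCI-H1975. All 4 knockdown libraries were above siCON, at 1.30 ± 0.17 over both siRNAs (log2, SE; limma, adjusted p = 0.0784).

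Upstream kinases and factors were more often lower than higher. Of 29 tested, 19 were lower in both lines at 5 µM 18E (background 40.8%) and 4 higher, with medians of -0.12 in HCC827 and -0.25 in NCI-H1975. MRTFB, a coactivator of serum response factor, had 2.18 FPKM at 5 µM and 7.62 with DMSO in HCC827, and 2.07 and 5.94 FPKM in NCI-H1975 (-1.31 ± 0.22, log2, SE; limma, adjusted p = 0.1). MAPK14, the p38 alpha kinase, gave -0.999 ± 0.175 and RPS6KA3, the ERK-activated kinase RSK2, -0.80 ± 0.16 (adjusted p = 0.1 and 0.102). With siDYN-2, 16 of the 29 were lower in both lines (background 34.5%) and 6 were called lower (background 7.81%), and RPS6KA3 over both siRNAs gave -0.85 ± 0.16 (adjusted p = 0.0919).

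Known AP-1 target genes were split. At 5 µM 18E 8 of 18 tested were higher in both lines (background 25.5%) and 5 lower (background 40.8%), with medians of -0.03 in HCC827 and 0.24 in NCI-H1975. HBEGF, a ligand of EGFR, had 86.1 FPKM at 5 µM and 1.56 with DMSO in HCC827, and 14.4 and 2.32 FPKM in NCI-H1975 (3.65 ± 0.66, log2, SE; limma, adjusted p = 0.1). With siDYN-2, 9 of 20 tested were higher in both lines (background 39.9%) and 5 lower (background 34.5%). Of the 20, 2 were called higher (background 10.3%) and 1 lower (background 7.81%), shares near the background. CCND1, which encodes cyclin D1, had 73.3, 73.3 and 135 FPKM with siDYN-1, siDYN-2 and siCON in HCC827 and 45.6, 40.5 and 63.4 FPKM in NCI-H1975, at -0.71 ± 0.14 over both siRNAs (adjusted p = 0.0931).

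The partners and targets of MYC were read in the same way. Of the 12 tested genes of its dimer network, 6 were higher (background 25.5%) and 3 lower (background 40.8%) in both lines at 5 µM 18E, with medians of 0.27 in HCC827 and 0.07 in NCI-H1975. MXD1, which competes with MYC for MAX, had 31.6 FPKM at 5 µM and 3.62 with DMSO in HCC827, and 7.17 and 4.71 FPKM in NCI-H1975 (1.67 ± 0.53, log2, SE; limma, adjusted p = 0.138). Of 24 MYC target genes 10 were higher and 5 lower in both lines, against the same backgrounds, with medians of -0.09 in HCC827 and 0.16 in NCI-H1975. ODC1, ornithine decarboxylase, gave 1.21 ± 0.21 and LDHA, lactate dehydrogenase A, -0.99 ± 0.23 (adjusted p = 0.1 and 0.105). With siDYN-2, 5 network genes were higher and 5 lower in both lines with 1 called, and 16 target genes were higher and 6 lower with 2 called higher and 1 lower. The backgrounds were 39.9% higher and 34.5% lower in both lines, and 10.3% called higher and 7.81% called lower.

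Genes with the most similar pattern were sought over the 8 differences of treated libraries from controls, among 11449 genes tested in both tables. The 8 differences share 4 control libraries, and the HCC827 library at 5 µM was the highest of the 8 for all members but FOSL1 and JUND, so r is a description. ARC was most like ZFAND2A (Pearson r = 0.996), HERPUD1 and HBEGF (0.989 each). FOSB was most like NXF1 (0.998), KLHL15 (0.995) and ZFP36 (0.99). ARC and FOSB were not tested in the siRNA table, where they had 0 to 0.95 FPKM, so their siRNA differences are of values near the floor. FOS was most like GADD45G and PSTK (0.992 each), EGR1 like R3HCC1L (0.988) and JUN like FBXL12 (0.981). MYC was most like DUSP12 (0.964), FOSL2 like ZNF436 (0.969) and FOSL1 like PITPNC1 (0.95). JUNB and JUND spanned less than 1 on the log2 scale over the 8 differences and were not compared.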

How the data were processed

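RNA was taken from the cells with Trizol and made into libraries with a TruSeq kit, per the labels' protocols, and 12 libraries were read. Levels were deposited as FPKM with 2 decimals, per the file headers, in a table of 6 libraries for each experiment. The submitters' processing notes list Bowtie 0.12.2, mm8 (a build of the mouse genome) and GRCh38.p12 and give no role for them. Which program made the FPKM values, which annotation it used and how it treated strand is not given in the sources used here. Broken lines were left out (40 for 18E, 20 for siRNA), and 0 columns were left unmatched. Ratios of low values between libraries gave no sign of whole-read steps, so no counts could be rebuilt.

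Differences were taken on log2(FPKM + 1). A gene was tested where 2 or more of the 6 libraries of its table reached 1 FPKM. The test was limma 3.58.1 (R 4.3.3), two-sided, with a variance trend and a Benjamini-Hochberg adjusted p threshold of 0.05. Cell line was a block, because the labels pair the libraries by line (correlation of deviations from group means 0.791 to 0.939). Residual degrees of freedom were 2 for 18E, 3 for both siRNAs in 1 term and 2 for the difference between lines. A run on simulated data, with noise of a fixed size, checked only that the mean fitted size of planted changes was right. It does not give the rate of false or missed calls in these data. The tables were fitted apart, and levels were never tested across them.

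All 10 members are named, with up to 3 genes per further list by fitted change at 5 µM and by siDYN change, the 3 genes most like each member, and DYNC1LI1. The members and lists were chosen with earlier results of these data known. Some of the genes that this rule takes are left unnamed. Comparisons of single siRNAs were added after the data were seen. Alternatives were a pseudocount of 0.1, equal FPKM totals, quantile normalization, no filter, no variance trend, no line block, single siRNAs and each library left out.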

Additional observations from a re-analysis of the deposited data

Results flagged for a closer look

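FOSL2 stood out with 18E because the lines differed from their controls in opposite directions. Both treated HCC827 libraries were above the DMSO library of that line (24.3 and 33.6 FPKM at 2.5 and 5 µM, against 15.3 FPKM), and both treated NCI-H1975 libraries were below theirs (18.6 and 15.5 FPKM, against 19.0 FPKM). The difference between the lines, HCC827 minus NCI-H1975, was 1.01 ± 0.42 (log2, SE), and the limma test of that difference did not pass (unadjusted p = 0.0594, adjusted p = 0.999).

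FOSL1 stood out in the same way with knockdown. Both knockdown libraries of HCC827 were above siCON (159 and 251 FPKM with siDYN-1 and siDYN-2, against 124 FPKM), and both of NCI-H1975 were below it (143 and 123 FPKM, against 166 FPKM). The difference between the lines was 1.00 ± 0.45 (log2, SE), and the limma test of it did not pass (unadjusted p = 0.0717, adjusted p = 1).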

How the results depend on the processing

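The number of genes called at 5 µM 18E against DMSO, 1 in the reported fit, was 16 with a pseudocount of 0.1 and 0 with equal FPKM totals, quantile normalization, no filter, no variance trend or no replicate block, and 34 to 4520 with 1 library left out. Leaving out 1 library gave 0 to 26 calls for 2.5 µM against DMSO, 0 to 3478 for 5 µM against 2.5 µM, 0 to 128 for both siRNAs against siCON, 18 to 1431 for siDYN-1, 219 to 2482 for siDYN-2 and 1 to 386 for siDYN-2 against siDYN-1. Such fits have fewer residual degrees of freedom, and the cause of their larger counts was not tested. The siRNAs apart gave 82 (siDYN-1) and 2124 (siDYN-2) calls where both together gave 0. siDYN-2 gave 0 calls with no filter or no replicate block, and siDYN-1 gave 46 with equal totals and 0 with no filter, no trend or no replicate block. siDYN-2 against siDYN-1, with 71 calls, gave 33 with equal totals, 1 with no trend and 0 with no filter or no replicate block. The line difference with siDYN gave 1 call at a pseudocount of 0.1 and 0 otherwise. Without the line block the adjusted p for siDYN-2 was 0.616 for JUN and 0.681 for JUND, and with no filter 0.1 and 0.106.

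Members at least 2-fold higher in both lines at 5 µM numbered 5, or 4 with equal totals; at 2.5 µM there were 0, or 1 at a pseudocount of 0.1. With siDYN-1 alone FOS was -0.125, EGR1 -0.378 and MYC -0.197, each opposite in sign to both siRNAs together, and EGR1 was -0.005 with equal totals. Leaving out 1 library gave ranges that cross 0 for FOSL2 at 5 µM (-0.11 to 0.92) and, for both siRNAs, for EGR1 (-0.39 to 0.57), MYC (-0.16 to 0.49) and FOSL1 (-0.32 to 0.68). Of the other fitted differences at 5 µM that changed most, FOS ran from 1.91 to 4.21, FOSB from 1.67 to 5.79 and EGR1 from 0.54 to 2.40. Fits of the difference between lines without a DMSO or siCON library could not be made. With 1 library per line and treatment and no read totals, neither the spread within a condition nor the counting error is known, and FOSB and ARC in the controls are at values where FPKM with 2 decimals is coarse.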
